A study of Rattus norvegicus with 43 samples.

Results

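The comparison was between 22 rats numbered 1 to 22 and 21 rats numbered 23 to 43, which together were all 43 animals of the series. Members were chosen by the number in the sample label alone, and the position of the boundary was picked because array values had been seen to change there: the first principal component of the arrays, and the summed levels of gonadotroph and other marker genes, shifted between animals 22 and 23. For that reason every value across the boundary is given as a description, without a test, an SD or a p-value. All animals were male F2 offspring of a cross of Copenhagen (COP) females with ACI males. Each carried an implant with 5 mg of the synthetic estrogen diethylstilbestrol (DES) from 9 weeks of age and was killed at 21 weeks, after 12 weeks of treatment and 4 hours after bromodeoxyuridine (BrdU) at 50 mg/kg. Untreated rats were not part of the series. The 2 ranges of numbers shared cross, sex, age, DES and BrdU. F2 animals differ from each other in the COP and ACI alleles they carry, and the labels give no genotype.

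The design text gives 22 animals of highest and 21 of lowest pituitary weight, while no label says what an animal number stands for or which weight an animal had. Weight class, order of processing and anything else that followed the numbers therefore cannot be told apart, and the groups are called here by their numbers only. In the anterior pituitary, lactotrophs secrete prolactin, somatotrophs growth hormone, thyrotrophs thyrotropin and gonadotrophs the gonadotropins. Thyrotropin and the gonadotropins share an alpha subunit, encoded by Cga, and differ in their beta subunits. Estrogens stimulate lactotrophs, and prolonged exposure of susceptible rats such as ACI leads to lactotroph growth. Each array measured RNA of the whole lobe, so fewer cells of a type and less RNA per cell cannot be told apart.

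Values were log2 intensities of probe sets, with 16 added before the log was taken, and the brightness of different genes was not compared. For each gene the lowest, median and highest animal of each range are given, with the difference of the medians and the share of all pairs of animals, 1 from each range, that went one way. A gene was called separated when at least 90% of pairs went the same way. The label of the tissue fitted its markers in so far as Prl, Gh1 and Cga were bright in every animal, while Pomc, the corticotroph hormone precursor, had a median of 5.02 in animals 1 to 22 and 6.26 in animals 23 to 43 and was too dim to be counted. Animal 43 had the array least like the rest (mean r 0.927) and the largest excess of 3' over 5' actin signal, 1.97 on the log2 scale. Animal 43, and animal 38, which had the highest Tshb and Fshb, were therefore left out together in a second calculation.

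Among 15521 probe sets that passed a filter on brightness, 273 were separated with the higher values in animals 1 to 22 (1.76%) and 290 with the higher values in animals 23 to 43 (1.87%). With the median of each array subtracted first, the split was 345 against 206, so that the share higher in animals 1 to 22 went from 48.5% to 62.6%. Without animals 38 and 43, 509 of the 563 separated probe sets were still separated. The shifts were mostly small: the median absolute difference was 0.41 on the log2 scale over the separated probe sets and 0.0989 over all probe sets that passed. At the level of named genes, each represented by its brightest probe set, 186 of 9407 were separated with higher values in animals 1 to 22 (1.98%) and 230 with higher values in animals 23 to 43 (2.44%). A further 117 probe sets of these genes passed the filter, and 111 of them differed in the same direction as the one that represented the gene, 21 being separated themselves. They were measured on the same RNA of the same animals, and the share over all genes was not calculated. Nothing is therefore read from this count.

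**Figure D1:**
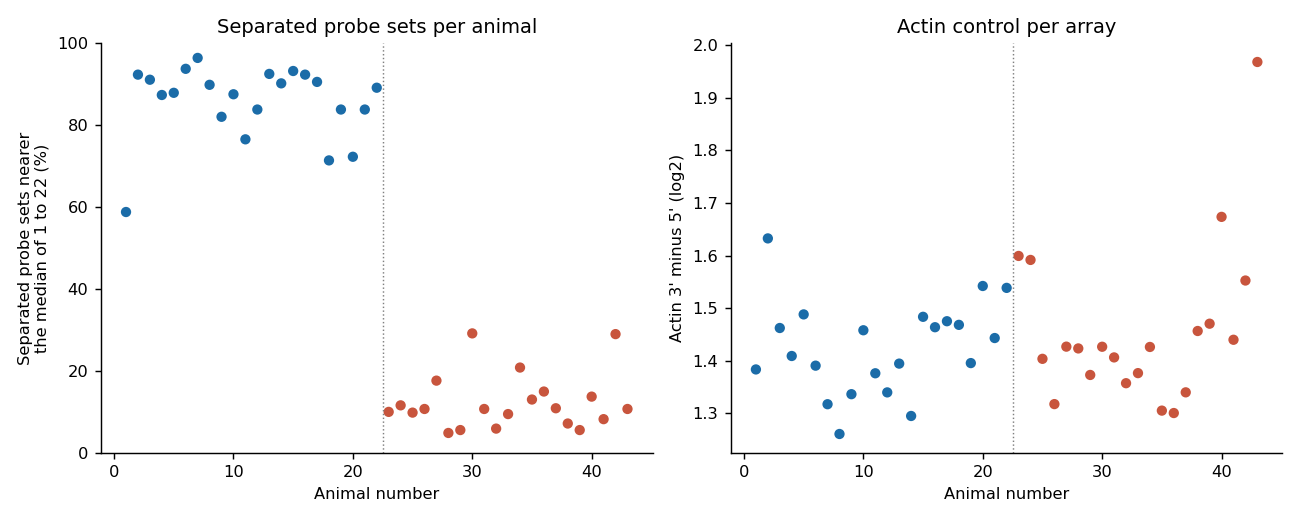
The left panel plots, for each animal by number, the share (%) of the 563 separated probe sets whose value lay nearer the median of animals 1 to 22, and the right panel the log2 difference between the 3' and 5' actin control probe sets of the same array. Points are animals, blue for 1 to 22 and red for 23 to 43, and the dotted line marks the boundary. In the left panel animal 1, at 58.8%, and animals 30 and 42, near 29%, lie closest to the other range, and in the right panel both ranges have a median of 1.43. The probe sets of the left panel were selected for separation between these same animals, so nothing is read from the side on which an animal lies.

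The values that led to the boundary are given for the animals next to it, as a description. The score on the first component, which held 17.6% of the variance and took part in the choice, was -3.51 for animal 20, 10.03 for animal 21 and 12.3 for animal 22, and was -11.6, -10.1 and -9.78 for animals 23, 24 and 25, with animal 43 at -62.0. The next lowest score was -15.7, in animal 40. The 17.6% therefore includes the distance of animal 43 and is not the size of the shift at the boundary. The component was not calculated again without animal 43. The share of separated probe sets nearer the median of animals 1 to 22 was lowest within that range in animals 1 (58.8%), 18 (71.4%), 20 (72.3%) and 11 (76.6%). In the other range it ran from 4.8% in animal 28 to 29.1% in animal 30. The probe sets were selected for separation between these same animals, and the medians came from the same values. Most animals were thereby placed on the side of their own range. The share does not bear on whether the boundary exists or on how uniform a range was. The 57 control probe sets gave no separation in either direction, with between 21.6% and 64.1% of pairs higher in animals 1 to 22 and a largest absolute difference of 0.245. The actin 3' to 5' difference had a median of 1.43 in both ranges. Array medians were slightly lower in animals 1 to 22 (median 132.4 intensity units, against 135.9), and the part of these array properties in the results was not tested.

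Genes of gonadotrophs formed the list with the most separated members. Of 9 genes in the list, 8 passed the filter, and 5 of these (Cga, Fshb, Gnrhr, Nr5a1 and Foxl2) were separated, all with higher values in animals 23 to 43. The median difference over the 8 genes was -0.67 (animals 1 to 22 minus 23 to 43), beside -0.0106 over all 9407 genes. Over all genes 2.44% were separated in that direction. The count was 5 without animals 38 and 43, after quantile normalization and after subtraction of array medians, and 1 (Cga) with a filter at the 75th percentile of brightness, which the other 4 genes did not pass. Because marker levels took part in the choice of the boundary, nothing is read from the count.

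The 250 bases before the start of the 2 hormone subunit genes Cga and Lhb, of the receptor gene Gnrhr and of the thyrotropin gene Tshb are shown from RefSeq, since 3 of these genes were separated and Lhb was not. Capitals mark CAAGGNCA on either strand (TGNCCTTG as printed when on the other strand), a form of the element bound by SF-1, the product of Nr5a1. The motif was picked after these sequences had been read.
Cga (GRCr8 chr5:54283090-54283339, plus strand): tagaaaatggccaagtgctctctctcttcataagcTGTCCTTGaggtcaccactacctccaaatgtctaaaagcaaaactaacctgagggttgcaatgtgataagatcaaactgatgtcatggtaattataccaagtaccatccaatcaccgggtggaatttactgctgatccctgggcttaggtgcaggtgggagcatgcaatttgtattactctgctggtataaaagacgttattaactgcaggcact
Lhb (GRCr8 chr1:105037207-105037456, plus strand): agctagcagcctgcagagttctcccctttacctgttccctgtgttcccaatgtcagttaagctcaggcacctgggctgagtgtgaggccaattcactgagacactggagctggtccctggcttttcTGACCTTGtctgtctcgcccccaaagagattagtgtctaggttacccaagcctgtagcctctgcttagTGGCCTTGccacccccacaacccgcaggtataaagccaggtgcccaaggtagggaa
Gnrhr (GRCr8 chr14:22211416-22211665, plus strand): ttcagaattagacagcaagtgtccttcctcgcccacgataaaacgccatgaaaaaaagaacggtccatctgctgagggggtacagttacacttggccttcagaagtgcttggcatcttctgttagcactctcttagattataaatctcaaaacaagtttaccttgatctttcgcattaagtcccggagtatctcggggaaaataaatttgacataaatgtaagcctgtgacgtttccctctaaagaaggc
Tshb (GRCr8 chr2:192918055-192918304, minus strand): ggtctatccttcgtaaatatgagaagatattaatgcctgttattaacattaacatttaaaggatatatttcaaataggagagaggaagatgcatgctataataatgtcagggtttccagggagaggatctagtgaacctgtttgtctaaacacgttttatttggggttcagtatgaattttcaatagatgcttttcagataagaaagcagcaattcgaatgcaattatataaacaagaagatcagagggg
Cga held 1 copy, 215 bases before the start, and Lhb, for the more upstream of its 2 annotated starts, held 2, at 124 and 56 bases. Its other start, Gnrhr, Tshb and Nr5a1 held none. The motif was present in 1869 of 33469 promoter windows of this length (5.58%), and in 2 of the 9 gonadotroph and thyrotroph genes that had a promoter entry, out of 13 with array values. These are matches of letters and nothing is drawn from them about binding.

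Cga, the alpha subunit common to the glycoprotein hormones, lay between 14.05 and 15.00 in animals 1 to 22, with a median of 14.67, and between 14.98 and 15.73 in animals 23 to 43, with a median of 15.23. The difference of the medians was -0.56 on the log2 scale, or 1.48-fold. The animal from 23 to 43 was higher in 99.8% of pairs, the exception being animal 18 against animal 27.

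Fshb encodes the beta subunit of follicle-stimulating hormone. Its values ran from 6.58 through a median of 7.25 to 7.84 in animals 1 to 22, and from 7.24 through 8.52 to 9.01 in animals 23 to 43, a 2.40-fold difference. Animals 42 (7.24) and 40 (7.63) were the 2 animals from 23 to 43 that fell inside the other range. Lhb, the beta subunit of luteinizing hormone, was not separated. Its medians were 7.98 and 8.24, its ranges 7.45 to 8.36 and 7.72 to 9.16, and 74.2% of pairs were higher in animals 23 to 43.

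Gnrhr, the receptor for gonadotropin-releasing hormone, had a median of 7.64 (6.77 to 8.35) in animals 1 to 22 and of 8.60 (7.65 to 8.89) in animals 23 to 43. Animals 30, 33 and 42, at 7.65, 7.82 and 7.92, were the lowest of the higher range. Another probe set of Gnrhr that passed was not separated, with a difference of -0.68 and 84.3% of pairs higher in animals 23 to 43. Nr5a1, the nuclear receptor that directs gonadotroph differentiation, had medians of 7.33 and 8.13 and was higher in animals 23 to 43 in 98.1% of pairs. Foxl2, a forkhead factor of gonadotrophs, had medians of 7.73 and 8.51, with 94.8% of pairs. Of the other members that passed, the granule protein genes Chga and Scg2 differed by 0.11 and -0.15 and neither was separated. Scg2 was close to the limit, with 88.7% of pairs higher in animals 23 to 43, while Chga had 56.5% of pairs higher in animals 1 to 22.

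Tshb, the beta subunit of thyrotropin, showed the largest difference among hormone genes. It lay between 10.28 and 12.49 in animals 1 to 22, with a median of 11.67, and between 12.12 and 14.27 in animals 23 to 43, with a median of 13.19, a 2.86-fold difference. The ranges overlapped through animal 40 alone, which at 12.12 was below animals 1, 9 and 20. The other 2 thyrotroph genes that passed had higher medians in animals 23 to 43 as well, but neither was separated. Trhr, the receptor for thyrotropin-releasing hormone, had medians of 11.68 and 11.84, ranges that overlapped widely and 61.0% of pairs in that direction. Tef had medians of 8.65 and 8.81, with 76.2% of pairs.

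**Figure D2:**
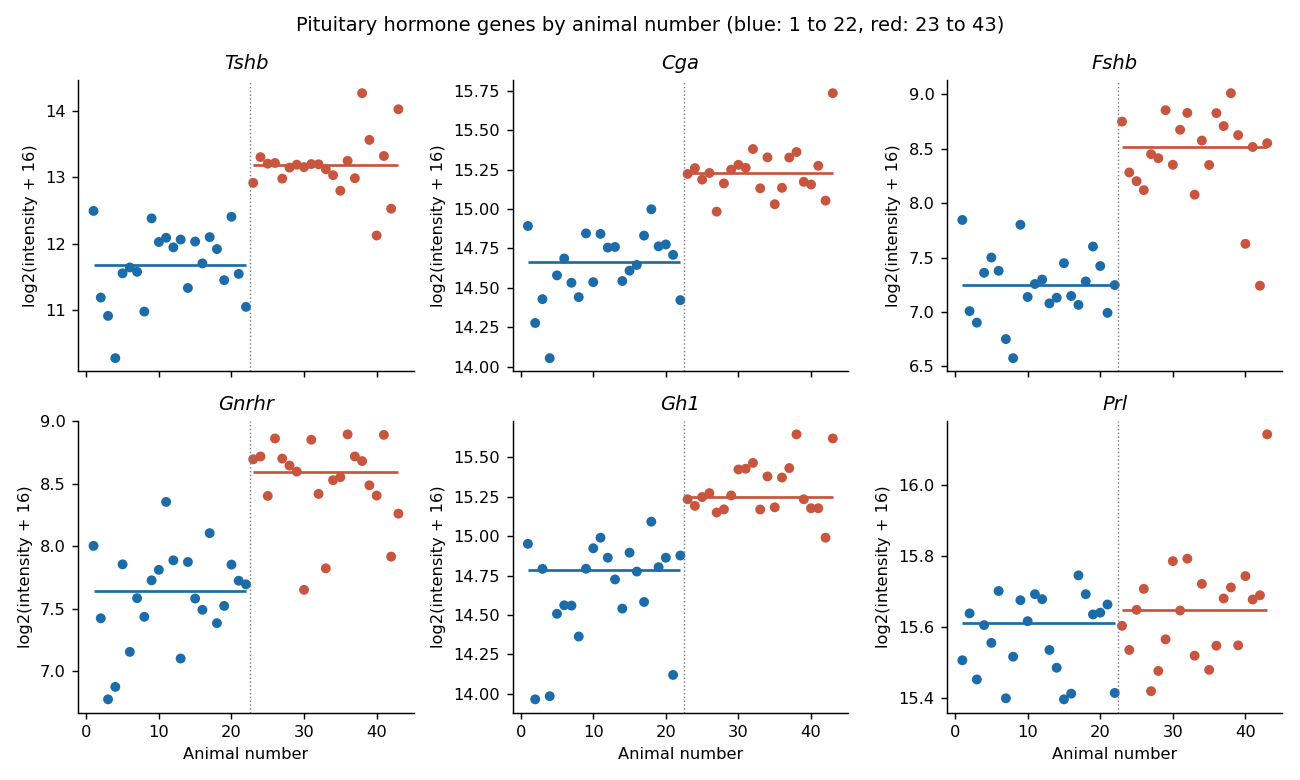
The panels plot log2(intensity + 16) against animal number for Tshb, Cga, Fshb, Gnrhr, Gh1 and Prl. Points are animals, blue for 1 to 22 and red for 23 to 43, horizontal lines are the medians of each range and the dotted line is the boundary. All but Prl were separated, and the medians of Prl are 15.61 and 15.65. The genes were chosen after the values were seen, and marker levels took part in the choice of the boundary. Nothing is therefore read from a change of level at the line.

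Gh1, growth hormone, was between 13.96 and 15.09 in animals 1 to 22 (median 14.78) and between 14.99 and 15.65 in animals 23 to 43 (median 15.25). It was higher in animals 23 to 43 in 99.8% of pairs, animal 18 being above animal 42. All 5 somatotroph genes that passed had lower medians in animals 1 to 22, with a list median of -0.46, but only Gh1 was separated (2 genes after quantile normalization). Over all 9407 genes, 4991 medians were lower in animals 1 to 22 (4110 with array medians subtracted). Of all genes, 2.44% were separated with higher values in animals 23 to 43. Dlk1, a membrane protein of somatotrophs, lay just outside the limit with 89.8% of pairs and became separated without animals 38 and 43. Ghrhr, the receptor for growth hormone-releasing hormone, followed with 89.0% of pairs. Just inside the limit were Scg3 and Mthfd2, each with 90.04% of pairs in the other direction.

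None of the 6 lactotroph genes that passed was separated, 5 medians being higher in animals 23 to 43 and 1 in animals 1 to 22, with a list median of -0.07. Over all 9407 genes, 4991 medians were higher in animals 23 to 43. Separated genes were 1.98% with higher values in animals 1 to 22 and 2.44% in animals 23 to 43. Prl had a median of 15.61 (15.40 to 15.75) in animals 1 to 22 and of 15.65 (15.42 to 16.14) in animals 23 to 43. Both Prl and Gh1 are among the brightest probe sets, and saturation was not assessed. Drd2, the dopamine receptor through which dopamine restrains prolactin release, had the median that was higher in animals 1 to 22, 12.27 against 12.00, with 83.1% of pairs. Agtr1b, an angiotensin receptor, differed more and in the other direction, with medians of 7.51 and 8.11 and 82.5% of pairs.

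Of the list set up as lactotroph peptides, Gal, Vip, Nmb and Calb1 passed, and all 4 medians were higher in animals 23 to 43 (3 after either other normalization). The name is only that of the list: Calb1 encodes a calcium-binding protein, and the cell type that made each RNA was not measured. The list median was -0.86, beside -0.0106 over all 9407 genes, but the differences varied in size and only Nmb was separated. Calb1 had medians of 7.51 and 8.15, with 83.1% of pairs higher in animals 23 to 43. Nmb, which encodes neuromedin B, lay between 8.85 and 9.97 in animals 1 to 22 (median 9.38) and between 9.38 and 10.99 in animals 23 to 43 (median 10.46), and was separated with 95.9% of pairs. Vip, vasoactive intestinal peptide, had medians of 11.45 and 12.57, a difference of similar size, but its ranges of 10.25 to 12.90 and 9.59 to 13.74 overlapped widely and it was not separated. Gal, galanin, an estrogen-induced peptide of lactotrophs, had medians of 15.51 and 15.55. Its probe set is also among the brightest, and saturation was not assessed. Cartpt, the precursor of the CART peptide, was named for its size and not through a list. It had medians of 7.57 (6.30 to 8.60) and 9.05 (7.78 to 9.84), a 2.80-fold difference.

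**Figure D3:**
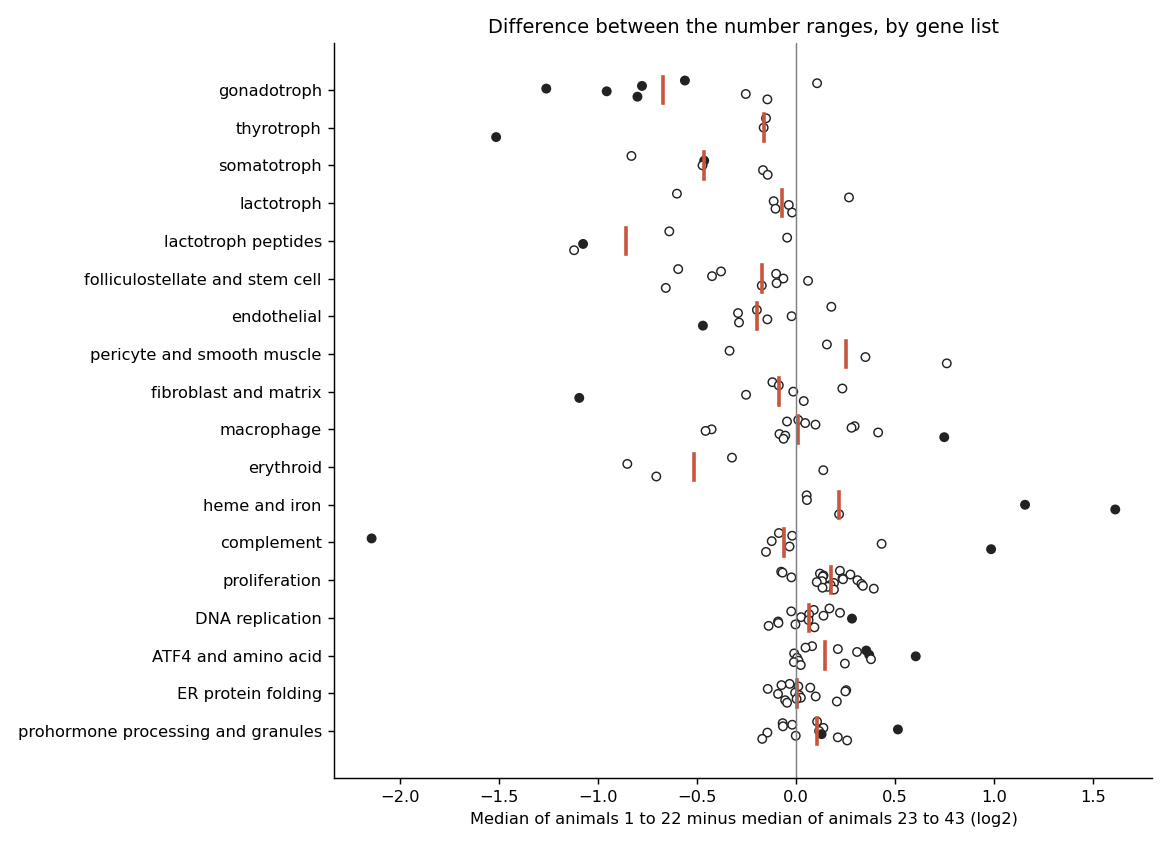
Each point is a gene that passed the filter, placed by the median of animals 1 to 22 minus the median of animals 23 to 43 (log2), with 1 row per gene list; filled points are separated, open points are not, and red bars are list medians. The gonadotroph row holds 5 filled points on the left, the proliferation row none, and the heme and iron row 2 on the right.

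In the opposite direction, the largest difference of any gene was that of an iron transporter. Of 5 genes of the heme and iron list that passed, Slc40a1 and Hmox1 were separated, and all 5 medians were higher in animals 1 to 22, also after quantile normalization and after subtraction of array medians. Over all 9407 genes, 1.98% were separated in that direction and 4416 medians were higher in animals 1 to 22 (5297 with array medians subtracted). Slc40a1 encodes ferroportin, which exports iron from cells. It ran from 8.48 through a median of 9.68 to 10.96 in animals 1 to 22 and from 7.09 through 8.07 to 8.84 in animals 23 to 43, a 3.06-fold difference, with 98.9% of pairs. Hmox1, heme oxygenase 1, which breaks down heme, ran from 7.78 through 8.81 to 11.61 and from 6.25 through 7.65 to 8.37. Its spread within animals 1 to 22 was much wider than within animals 23 to 43, and 9 animals from 1 to 22 lay inside the range of the others.

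Mrc1, a mannose receptor of tissue macrophages, was the separated gene among 13 macrophage genes that passed. It had medians of 8.70 (7.69 to 9.62) and 7.95 (7.50 to 8.48). The macrophage list as a whole had a median difference of 0.0103, with 7 medians higher in animals 1 to 22 and 6 in animals 23 to 43, which became 6 and 7 after quantile normalization. The 4 highest animals from 1 to 22 were 2, 5, 10 and 14 for Slc40a1, Hmox1 and Mrc1 alike, and animal 40 was the highest from 23 to 43 for all 3, an observation made after the values were seen. These 3 genes were picked from a larger set looked at in this way. For Dab2 the 4 highest were 2, 5, 8 and 14 and for Rarres1 2, 5, 14 and 17, with animal 30 the highest from 23 to 43 for both. For Lpl, animals 1, 2, 5 and 10 were the lowest from 1 to 22. Cd163, a hemoglobin scavenger receptor of macrophages, fell below the filter, with medians of 6.99 and 5.79. None of the 4 globin and other erythroid genes that passed was separated. Their list median was -0.52, with Hbb at medians of 12.98 and 13.69, while the alpha globin gene Hba-a3 had the higher median in animals 1 to 22 (13.04 against 12.90). The part of macrophages or blood in the iron values was not tested.

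**Figure D4:**
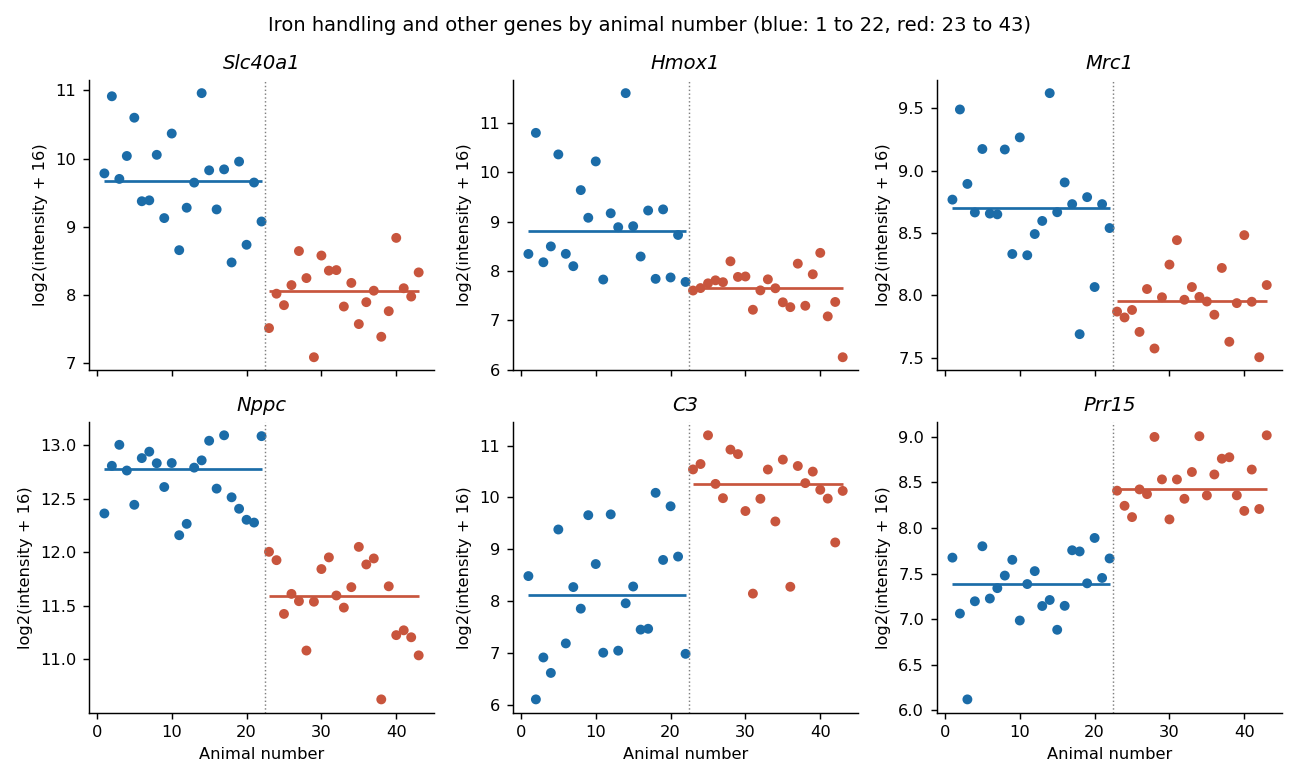
The panels plot log2(intensity + 16) against animal number for Slc40a1, Hmox1, Mrc1, Nppc, C3 and Prr15, chosen after the values were seen. Points are animals, blue for 1 to 22 and red for 23 to 43, lines are medians and the dotted line is the boundary; Nppc and Prr15 have no overlap between the ranges, and the ranges of C3 share the values from 8.15 to 10.09.

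Among probe sets that passed, 5 higher in animals 1 to 22 (0.0322%) and 1 higher in animals 23 to 43 (0.00644%) had no overlap between the ranges, and 10 (0.0644%) and 21 (0.135%) had medians at least 2-fold apart. Named genes without overlap were 4 higher in animals 1 to 22 (0.0425% of the genes) and 1 higher in animals 23 to 43 (0.0106%). Nppc, the precursor of C-type natriuretic peptide, lay between 12.16 and 13.09 in animals 1 to 22 (median 12.78) and between 10.63 and 12.05 in animals 23 to 43 (median 11.60), a 2.27-fold difference. C2cd4a, a nuclear protein gene, had medians of 10.05 and 9.30, Pdgfrl, a gene related to the platelet-derived growth factor receptors, of 10.28 and 9.69, and Slc2a13, a proton-coupled myo-inositol transporter, of 10.29 and 9.89. Prr15, a proline-rich protein, was the one that was higher in animals 23 to 43, between 8.10 and 9.02 (median 8.42) against 6.12 to 7.89 (median 7.39). The gaps were narrow, with 12.05 against 12.16 for Nppc, 7.89 against 8.10 for Prr15 and 10.131 against 10.135 for Slc2a13. Another probe set of Slc2a13 that passed was not separated, with 89.2% of pairs higher in animals 1 to 22.

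A median difference of at least 2-fold was found for 6 genes higher in animals 1 to 22 (0.0638%) and 17 higher in animals 23 to 43 (0.181%), separated or not. Besides Slc40a1, Nppc and Hmox1, the separated genes with the largest differences in animals 1 to 22 were Cdh13, a cadherin without a transmembrane domain (8.33 against 7.20), Chad, the matrix protein chondroadherin (7.98 against 6.95), and Lox, lysyl oxidase, which cross-links collagen (8.97 against 7.98). Cfd, complement factor D, had medians of 8.64 and 7.65, and Tcfl5, a transcription factor, of 8.96 and 8.01, with 99.8% of pairs. Tceal5, Nell1, Rarres1, Dab2, Bcl11b, Kcnq5 and Pilra completed the 15, with differences from 0.99 down to 0.83. Other probe sets that passed had 93.3% and 87.9% of pairs higher in animals 1 to 22 for Cdh13 and 85.3% for Bcl11b. The ranges of Pilra and Chad overlapped widely, since 19 and 18 of the animals from 23 to 43 lay inside the range of animals 1 to 22. The median of Chad in animals 23 to 43 (6.95) lay below the filter limit of 7.16. Chad therefore passed only through its values in animals 1 to 22, and nothing is read from its place among the largest differences.

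The largest difference of any gene was that of C3, the central complement component, which was higher in animals 23 to 43. It ran from 6.11 through 8.11 to 10.09 in animals 1 to 22 and from 8.15 through 10.26 to 11.20 in animals 23 to 43, a 4.42-fold difference. Its spread was wide in both ranges, with animals 31 (8.15) and 36 (8.28) low among the latter, and 92.4% of pairs went the same way. The complement list did not move together, since Cfd went in the other direction and 6 of 8 members were not separated.

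Other genes higher in animals 23 to 43 included Akr1c14, a hydroxysteroid dehydrogenase (medians 6.59 and 8.03), Gpm6a, a neuronal membrane glycoprotein (7.32 and 8.73), and Nefl, the neurofilament light chain (8.26 and 9.35). Ndn, which encodes necdin, had medians of 7.51 and 8.58, and Dcn, the matrix proteoglycan decorin, of 8.29 and 9.39. Dcn was the separated gene among 7 fibroblast genes that passed. Csrp2, Tnfrsf12a and Astn1 differed by -1.01, -0.98 and -0.96. In animals 1 to 22 the medians of Akr1c14 (6.59) and Csrp2 (6.83) lay below the filter limit of 7.16. Both genes therefore passed only through their values in animals 23 to 43, and nothing is read from their place among the largest differences. Other probe sets of Akr1c14, with means of 7.00 and 6.96, did not pass.

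The counts of the lists above and of those that follow stand beside 1.98% of all genes separated with higher values in animals 1 to 22 and 2.44% in animals 23 to 43. None of 21 proliferation genes was separated, although 18 of their medians were higher in animals 1 to 22, also after either other normalization, and the list median was 0.17, beside 4416 of 9407 genes with higher medians in that range. Of 14 DNA replication genes Mcm6 alone was separated, and it was not without animals 38 and 43. Nupr1, Mthfd2 and Cars1 of 14 genes linked to ATF4 and amino acid supply were separated, with differences of 0.60, 0.37 and 0.35, the latter 2 not without animals 38 and 43. None of 16 chaperone and folding genes of the endoplasmic reticulum was separated, though 1 was after quantile normalization. Of 7 endothelial genes Tek, the angiopoietin receptor, was separated (medians 8.49 and 8.96), and of 6 genes of plasminogen activation Plaur, the urokinase receptor, was (9.52 and 8.99). Plaur had the only median of those 6 that was higher in animals 1 to 22, 5 being higher in animals 23 to 43, and the list median was -0.193. Pcsk2, a prohormone convertase, was higher in animals 1 to 22 (10.70 and 10.19).

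Medians of successive runs of numbers are given for 5 genes that were picked for their large difference across the boundary, so a step there was fixed by the choice and nothing is read from it. For Tshb the medians of animals 1 to 11, 12 to 22, 23 to 33 and 34 to 43 were 11.58, 11.92, 13.19 and 13.14. For Slc40a1 they were 9.79, 9.65, 8.15 and 8.02, and for Nppc 12.81, 12.59, 11.60 and 11.47. C3, at 7.86, 8.28, 10.54 and 10.14, and Hmox1, at 8.50, 8.89, 7.77 and 7.37, differed more between the 2 runs of one range than the other 3 genes did. The runs were set after the values had been seen. Next to the boundary, Tshb was 12.40, 11.54 and 11.05 in animals 20, 21 and 22 and 12.92, 13.30 and 13.20 in animals 23, 24 and 25.

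Not all large differences between animals followed the numbers. Hba-a3, an alpha globin gene, had 9 animals at or below 8.92 and all others at or above 12.44. Animals 9, 11, 20 and 22 of the first range and 27, 32, 33, 34 and 37 of the second formed the lower class, so that both ranges held it, and the medians of the ranges were 13.04 and 12.90.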

How the data were processed

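Anterior pituitary RNA of 43 rats was hybridised to 1 array each. The authors deposited 1 linear intensity per probe set and array, already scaled so that the mean without the lowest and highest 2% was close to 500.2 on each array. The array platform and the summarising software are not given in the sources used here, and precision is limited by how many arrays there are. Of 31099 probe sets 57 were controls. To each intensity 16 was added and the log2 taken, which understates differences of dim probe sets. The filter kept probe sets brighter, on average, than the middle one of those that were not controls (7.16 on the log2 scale). Genes were named where the platform annotation gave 1 symbol (20832 probe sets), and the probe set of highest mean represented a gene.

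The 43 arrays form 1 group in the labels. The boundary between numbers 22 and 23, the 40 gene lists and the rules were chosen with earlier results of these data known, so medians, ranges and shares of pairs are descriptions. A gene or probe set was separated at 90% or more of pairs in one direction. Named genes are list members, the 15 separated genes with the largest differences in each direction, genes without overlap, and Hmox1, C3 and Hba-a3. Promoters came from the RefSeq table of GRCr8. The motif, the 4 runs of numbers, the genes plotted and the comparison of extreme animals were chosen after values or sequences had been seen. Calculations were tested on simulated data and used Python 3.11.15, numpy 2.4.6 and pandas 2.3.3. Alternatives were other pseudocounts, filters and normalizations, averaged probe sets, and leaving out animals 38 and 43.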

Additional observations from a re-analysis of the deposited data

How the results depend on the processing

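With a filter at the 75th percentile of mean log2, fewer genes were tested: probe sets separated with higher values in animals 23 to 43 fell from 290 to 157, list members from 14 to 7 and gonadotroph genes from 5 to 1, because 4 of the 5 are dimmer than that limit. Of 51 described separated genes, none changed direction under any alternative run, while 28 were lost to that stricter filter, among them C3, Slc40a1, Hmox1, Prr15, Fshb, Gnrhr and Nr5a1. Directions of lists and of all genes were less stable: the macrophage median went from 0.0103 to -0.0005 after quantile normalization and -0.0049 without animals 38 and 43, that of estrogen-responsive genes from 0.0188 to -0.0102 without animals 38 and 43, and medians higher in animals 1 to 22 from 4416 to 5297 of 9407 genes with array medians subtracted. Of the 51, Mcm6 and Mthfd2 were not separated without animal 38, without animal 43 or without both, Scg3 was not without animal 38, Cars1 not without both, Ccnd3 not after quantile normalization, and Pgk1, Scg3 and Sgk1 not with array medians subtracted. The difference of Scg2, which was not separated, went from -0.15 to -0.016 after quantile normalization. Pseudocounts of 1 and 64, no filter, and averaging probe sets changed none of the 51. No paired analysis was possible because the labels give 1 group. Dim probe sets limit what can be said of Fshb, Gnrhr and Nr5a1, and brightness near the top of the scale that of Cga, Gh1, Prl and Gal.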
